A study of Mus musculus with 4 samples.

Results

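The genes described here are 10 that make or sense leukotrienes, prostaglandins and platelet-activating factor, out of 18894 genes named in the data. They were chosen by symbol: Alox5, Alox5ap and Lta4h of the lipoxygenase branch, the leukotriene B4 receptor Ltb4r1, Ptgs1, Ptgs2 and Ptges of the cyclooxygenase branch, the prostaglandin E2 receptors Ptger4 and Ptger2, and the platelet-activating factor receptor Ptafr. Each of the 10 had at least 1 UMI (a unique RNA molecule) in both tissues, and 8 passed the filter on low counts. The neutrophils were taken from tumors, and for comparison from blood, of 3 untreated FVB mice, an inbred strain, injected with the mouse mammary tumor line Py7160. All groups therefore came from tumor-bearing animals.

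Tumors measured about 1 cm when they were collected 2 to 3 weeks after injection, and were digested with enzymes, whereas blood cells of the same mice went through red-cell lysis. Cells were enriched through Ly6G to about 90% purity, stained with a hashtag antibody per mouse, pooled by tissue and sorted as CD11b+ Ly6G+ to over 99% purity. Each tissue then gave 1 library by Drop-seq, in which droplets pair single cells with barcoded beads, so that tissue, library and the way of releasing cells cannot be told apart. In a sum over cells, fewer expressing cells and less RNA per cell cannot be told apart either.

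Both branches start from arachidonic acid freed from membranes. The 5-lipoxygenase encoded by Alox5, together with its activating protein encoded by Alox5ap, makes leukotriene A4, which the hydrolase encoded by Lta4h turns into leukotriene B4, a strong attractant of neutrophils. The cyclooxygenases encoded by Ptgs1 and Ptgs2 make prostaglandin H2, the substrate of the terminal synthases such as Ptges. Ptgs1 is expressed steadily in many cells, and Ptgs2 is known as a gene that inflammatory stimuli induce.

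The promoters of Ptgs2 and Alox5, the inducible gene of one branch and the first enzyme of the other, are shown to set the sequences of the 2 branches beside each other. RefSeq promoter sequences (GRCm38.p6) matched 9 of the 10 genes, all but Alox5ap. The printed stretch runs 5′ to 3′ on the strand of the gene and covers 250 bases before the annotated start and 30 after it, at chr1:150099781-150100060 on the plus strand for Ptgs2 and at chr6:116461149-116461428 on the minus strand for Alox5. Capitals mark matches to the motifs named after the sequences.
Ptgs2: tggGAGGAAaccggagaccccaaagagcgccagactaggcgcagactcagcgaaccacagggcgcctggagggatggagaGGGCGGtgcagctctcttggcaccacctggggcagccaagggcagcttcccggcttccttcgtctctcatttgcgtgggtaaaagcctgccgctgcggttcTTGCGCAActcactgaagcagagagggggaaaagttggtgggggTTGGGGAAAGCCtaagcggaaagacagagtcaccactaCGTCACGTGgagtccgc
Alox5: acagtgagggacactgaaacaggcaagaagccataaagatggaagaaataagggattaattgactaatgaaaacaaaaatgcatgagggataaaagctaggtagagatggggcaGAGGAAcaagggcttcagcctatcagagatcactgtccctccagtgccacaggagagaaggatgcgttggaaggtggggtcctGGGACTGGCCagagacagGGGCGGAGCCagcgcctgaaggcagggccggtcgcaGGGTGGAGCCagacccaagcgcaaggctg
The Ptgs2 window held the C/EBP pattern TTNCNNAA from position -69 and again from -25, where it overlapped the NF-kB pattern (GGG and CC with 5 free letters between them) from -23. It also held the cyclic AMP response core TGACG, on the reverse strand from 14, overlapping the E-box CACGTG from 17, the GC box GGGCGG from -170 and the PU.1 core GAGGAA from -247. The Alox5 window held the NF-kB pattern from -53, -35 and 2, the GC box from -35, within the second of these, and the PU.1 core from -136. Positions count from the annotated start, with no position 0, and both strands were searched. Neither of these windows of 300 bases matched the TATA box TATAAA or the AP-1 pattern TGANTCA. The patterns are short and common: over 32544 mouse promoter windows of the same length, 40.7% held the C/EBP pattern, 51.0% the NF-kB pattern, 20.9% the cyclic AMP core, 7.17% the E-box, 35.9% the GC box, 28.1% the PU.1 core, 13.6% the TATA box and 7.79% the AP-1 pattern. A match describes the letters and not a bound site.

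After barcodes with at least 200 detected genes, at most 15% mitochondrial UMIs and at least 70% of hashtag counts from 1 hashtag were kept, tumor mice 1, 2 and 3 had 106, 564 and 171 cells with 572844 UMIs in all, and blood mice 1, 2 and 3 had 511, 456 and 408 cells with 1147068 UMIs. The median cell had 572 UMIs in tumor and 655 in blood. Neutrophil markers were detected as 9 of 9 genes in both tissues, at 66900 to 81100 CPM (UMIs of a gene per 1000000 UMIs) summed in the tumor mice and 180000 to 208000 CPM in the blood mice. Mouse 2 of the tumor pool stood apart. In tumor barcodes with 20 to 60 UMIs, far below the cells, its hashtag made up 68.9% of the hashtag counts, against 14.6% and 16.5% for the other hashtags, and 230 of its 564 cells got no call from HTODemux, a clustering method for hashtags. Of the blood cells, 36 got no such call. Results are therefore given with the HTODemux assignment (590 tumor and 1260 blood cells) and without tumor mouse 2 where these change them. Tumor and blood cells shared 0 barcodes.

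Between tumor and blood neutrophils the cyclooxygenase gene Ptgs2 and the receptor gene Ptafr were higher in tumor, and the leukotriene genes Alox5, Alox5ap and Ltb4r1 were lower. Of 8 genes tested, 2 rose, 3 fell and 3 did not pass the test (edgeR quasi-likelihood test on the summed UMIs of 3 against 3 mice, adjusted p under 0.05). These calls came to 62.5% of the genes tested, against a background of 60% of all 3674 genes tested, with 30.2% higher and 29.8% lower, so the number of calls is near that of any genes and the sizes and directions are what follows. The 3 tumor values lay wholly above or below the 3 blood values for 4 of the 8 genes, and for 63.0% of all genes tested. The median log2 fold change of the 8 was -0.23, beside -0.04 over all genes tested.

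**Figure D1:**
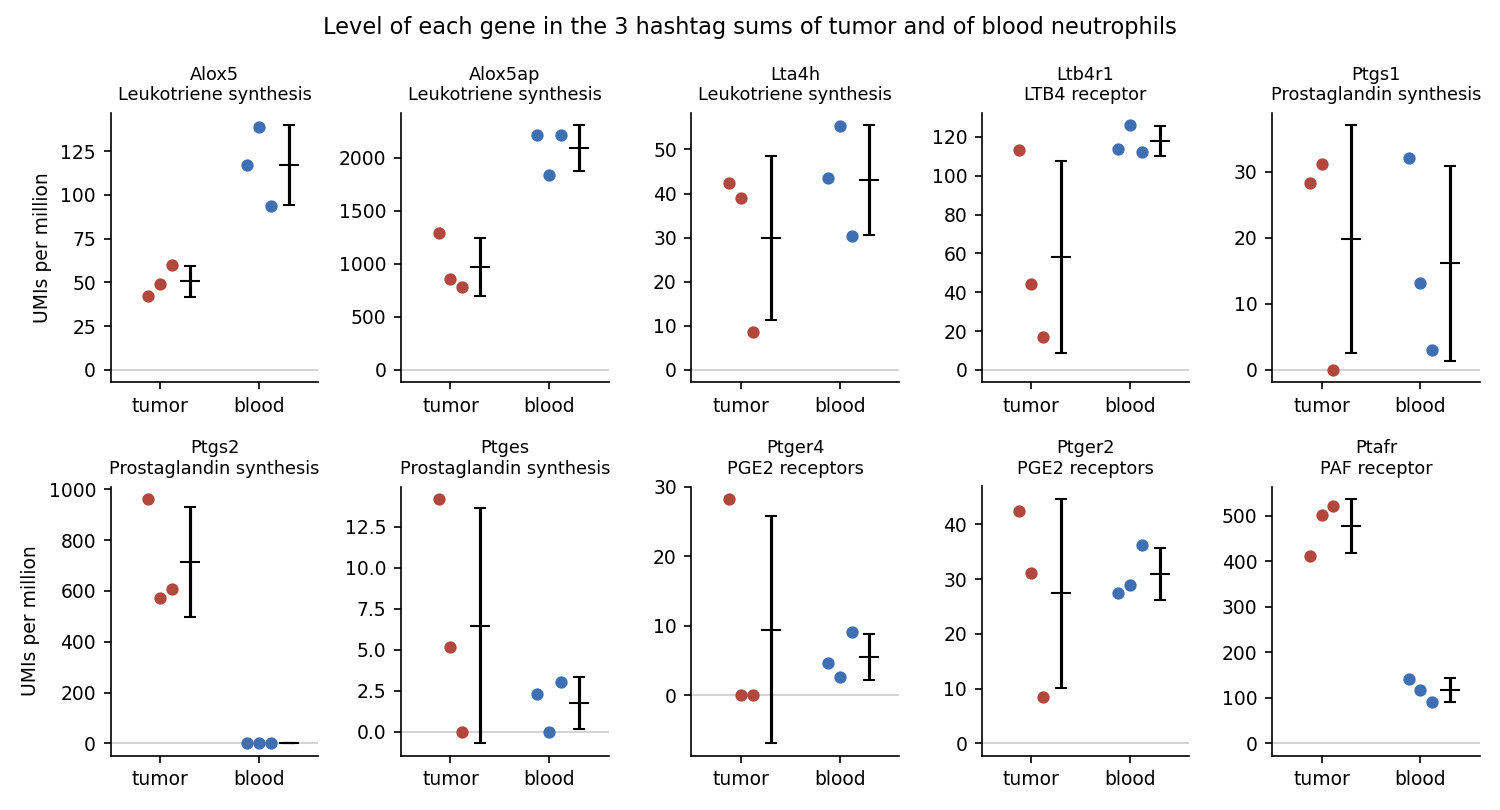
Level of each of the 10 genes in CPM (vertical axes, linear, a scale per panel) in each mouse of tumor (left, red) and blood (right, blue), with the mean and SD of 3 mice in black. Ptgs2 and Ptafr lie higher in all 3 tumor sums, Alox5 and Alox5ap lower, and the other genes overlap between the tissues.

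In the leukotriene branch, Alox5 (chr6:116410077-116461178, minus strand, GENCODE M21 on GRCm38, as for all genes here) stood at 42.5, 49.3 and 59.9 CPM in tumor mice 1, 2 and 3, against 117, 139 and 93.9 CPM in blood mice 1, 2 and 3. The highest tumor value stayed below the lowest blood value. The means were 50.6 ± 8.78 CPM in tumor and 117 ± 22.8 CPM in blood (SD, n = 3 each), from 29 and 135 UMIs. The log2 fold change was -1.16 with a standard error of 0.296 (edgeR, adjusted p = 0.00275).

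Alox5ap (chr5:149264767-149288153, plus strand), whose protein presents arachidonic acid to 5-lipoxygenase, was the member with the most UMIs in both tissues. Its levels were 1290, 854 and 779 CPM in tumor, against 2220, 1840 and 2220 CPM in blood. All tumor mice were below all blood mice, with means of 974 ± 275 and 2090 ± 218 CPM (SD, n = 3 each). It fell by 1.13 on the log2 scale (standard error 0.153, edgeR adjusted p = 7.98e-06). The direction and the call of Alox5 and Alox5ap held in each of the 18 alternatives run for them, with log2 fold changes of -1.72 to -0.93 for Alox5 and -1.41 to -1.03 for Alox5ap. Of these, the setting of at least 10 hashtag counts kept the same cells as the main setting, so it could not differ.

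Lta4h (chr10:93453411-93484875, plus strand), the hydrolase that completes leukotriene B4, was measured with few counts. It stood at 42.5, 38.9 and 8.56 CPM in tumor (19 UMIs), against 43.5, 55.3 and 30.3 CPM in blood (50 UMIs). The tissues overlapped, and the log2 fold change of -0.36 had a standard error of 0.437 (edgeR, adjusted p = 0.496). The ratio of the summed levels was 0.761 with an exact interval of 0.424 to 1.31. The level differed with the assignment of cells. In tumor it was 13.4 CPM (5 UMIs) in cells that HTODemux gave to 1 hashtag and 89.0 CPM (12 UMIs) in those without a call. The rest of the 19 tumor UMIs lay in cells given several hashtags. Lta4h had 4 of its 19 tumor UMIs in 1 cell with T cell marker UMIs. With the HTODemux assignment it did not pass the filter, and in the fit without the filter, added after seeing the data, it was lower in tumor and called (log2 fold change -1.76, edgeR adjusted p = 0.0246).

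Ltb4r1 (chr14:55765962-55768494, plus strand) encodes the high-affinity receptor through which neutrophils follow leukotriene B4. Its levels were 113, 44.1 and 17.1 CPM in tumor, against 114, 126 and 112 CPM in blood. The blood mice were alike, whereas the tumor mice spread widely and tumor mouse 1 reached the blood range. The means were 58.2 ± 49.6 CPM in tumor and 118 ± 7.63 CPM in blood (SD, n = 3 each), a difference of -1.25 on the log2 scale with a standard error of 0.343 (edgeR, adjusted p = 0.00455). The call was lost without tumor mouse 2, which holds 17 of the 27 tumor UMIs (log2 fold change -1.09, edgeR adjusted p = 0.0846), and without cells that held markers of macrophages, MHC class II or platelets (-0.91, adjusted p = 0.0721).

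In the prostaglandin branch, Ptgs2 (chr1:150100031-150108227, plus strand) stood at 963, 571 and 608 CPM in tumor, against 2.29, 0 and 3.03 CPM in blood. All tumor mice were far above all blood mice, with 359 UMIs in tumor and 2 in blood. The ratio of the summed levels was 359 with an exact interval of 98.8 to 2980 (95%, counting error only), and the fitted log2 fold change was 8.29 (standard error 0.384, edgeR adjusted p = 9.42e-12). Over the 18 alternatives the log2 fold change ran from 6.95 to 8.92, each with the same direction and call. Ptgs2 passed the low-count filter only through the tumor sums, and the alternative without that filter gave 8.04.

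Ptgs1 (chr2:36230426-36252272, plus strand), the other cyclooxygenase, stood at 28.3, 31.1 and 0 CPM in tumor (14 UMIs), against 32.1, 13.2 and 3.03 CPM in blood (20 UMIs). The tissues overlapped, and the log2 fold change of 0.51 with a standard error of 0.669 did not pass the test (edgeR, adjusted p = 0.530). Its tumor level was 5.37 CPM (2 UMIs) in cells that HTODemux gave to 1 hashtag and 29.7 CPM (4 UMIs) in those without a call. The rest of the 14 tumor UMIs lay in the 78 cells kept here that HTODemux gave several hashtags. Of the 14, 4 came from 1 cell with fibroblast marker UMIs. With the HTODemux assignment and no filter the sign turned (-1.20, edgeR adjusted p = 0.493). Ptges (chr2:30889471-30929863, minus strand), the inducible synthase that turns prostaglandin H2 into prostaglandin E2, had 3 UMIs in tumor and 2 in blood. The ratio of its summed levels was 3.00 with an exact interval of 0.344 to 36.0, and it did not pass the filter on low counts.

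The prostaglandin E2 receptor genes had few UMIs in both tissues. Ptger2 (chr14:44988195-45003820, plus strand), which encodes a receptor that raises cyclic AMP, stood at 42.5, 31.1 and 8.56 CPM in tumor (16 UMIs), against 27.5, 28.9 and 36.3 CPM in blood (35 UMIs). The blood values lay within the tumor range, and the log2 fold change was -0.09 with a standard error of 0.436 (edgeR, adjusted p = 0.886). Ptger4 (chr15:5206661-5244187, minus strand), whose receptor also raises cyclic AMP, had 2 UMIs in tumor and 6 in blood, a ratio of summed levels of 0.667 with an exact interval of 0.0659 to 3.73, and did not pass the filter. Ptger4 overlaps Ttc33 and Ptger2 overlaps the antisense gene Gm17173 on the opposite strands, and whether the counting used strand is not stated in the labels, so their few UMIs are uncertain.

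Ptafr (chr4:132564067-132582683, plus strand) encodes the receptor for platelet-activating factor, a phospholipid that primes neutrophils. Its levels were 411, 501 and 522 CPM in tumor, against 142, 118 and 90.8 CPM in blood. Every tumor mouse was above every blood mouse, with means of 478 ± 59.1 and 117 ± 25.6 CPM (SD, n = 3 each) from 283 and 137 UMIs. The log2 fold change was 2.07 with a standard error of 0.194 (edgeR, adjusted p = 9.01e-08), and it ran from 1.77 to 2.23 over the 18 alternatives, all with the same call.

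**Figure D2:**
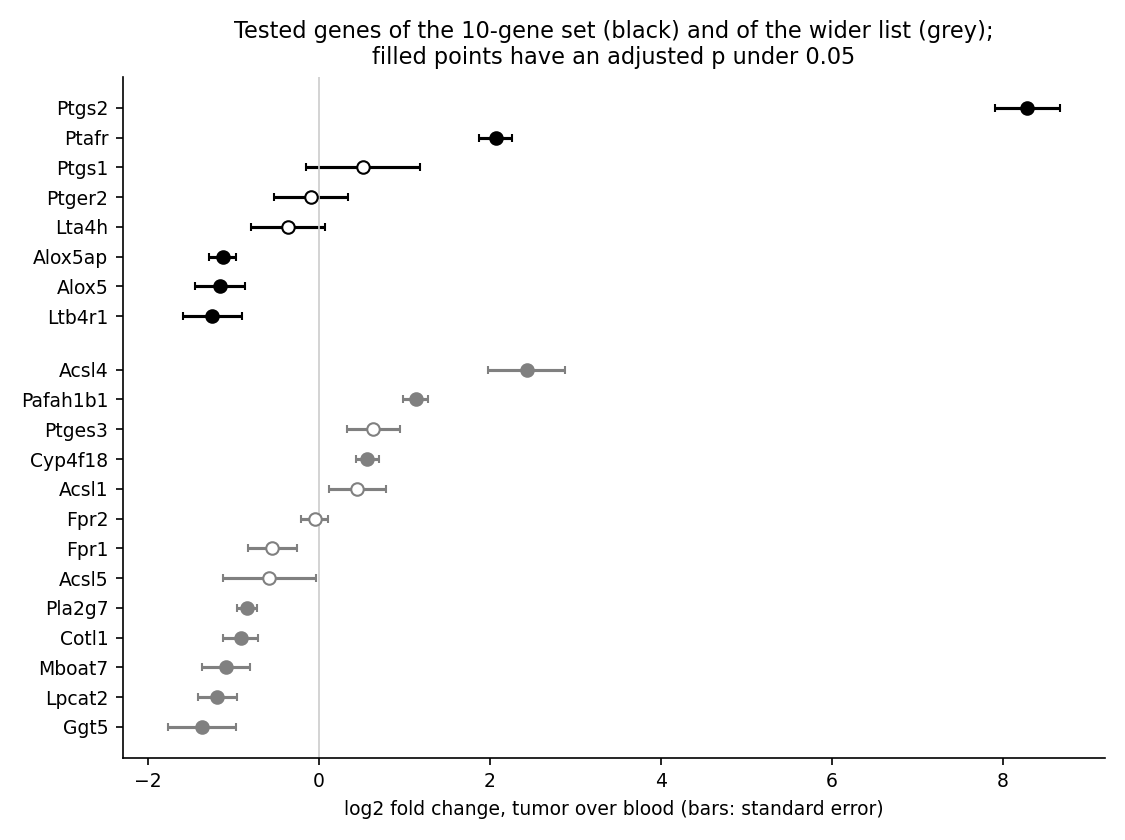
Log2 fold change of tumor over blood (horizontal axis, bars are standard errors) for the 8 tested genes of the set (black) and the 13 tested genes of a wider eicosanoid list (grey), with filled points for an adjusted p under 0.05. Ptgs2 stands at 8.29, Acsl4 and Ptafr at 2.43 and 2.07, and Alox5, Alox5ap and Ltb4r1 lie between -1.25 and -1.13.

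Set against each other per mouse, the lipoxygenase branch (Alox5, Alox5ap and Lta4h) summed to 1370, 942 and 847 CPM in tumor, against 2380, 2040 and 2350 CPM in blood. The cyclooxygenase branch (Ptgs1, Ptgs2 and Ptges) summed to 1010, 607 and 608 CPM in tumor, against 36.6, 13.2 and 9.08 CPM in blood. The lipoxygenase sum was the larger one in each of the 6 sums, by less in tumor and by more in blood. The cyclooxygenase share of the UMIs of both branches was 42.3%, 39.2% and 41.8% in tumor, against 1.52%, 0.642% and 0.386% in blood, or 41.1% ± 1.66 and 0.849% ± 0.595 (SD, n = 3 each). These shares rest on 559 lipoxygenase and 376 cyclooxygenase UMIs in tumor and on 2587 and 24 in blood. In tumor, 359 of the 376 cyclooxygenase UMIs were of Ptgs2, whereas in blood 20 of 24 were of Ptgs1. Of the lipoxygenase UMIs, 511 of 559 in tumor and 2402 of 2587 in blood were of Alox5ap, the gene of the activating protein. The enzyme genes Alox5 and Lta4h had 29 and 19 UMIs in tumor, and 135 and 50 in blood. The sums add molecules of genes with different lengths and capture and were not tested, since the genes of each branch were chosen with results known. With the HTODemux assignment the tumor share was 44.1% ± 2.00 and the blood share 0.702% ± 0.607. The share also differed with the content of the cells. In tumor the share was 50.3% (166 of 330 UMIs, exact interval 44.8% to 55.8%) in cells with 200 to under 300 genes, 40.4% (147 of 364) in cells with 300 to under 500 and 26.1% (63 of 241, 20.7% to 32.2%) in cells with 500 or more. It was 24.3% (50 of 206) in tumor cells without an HTODemux call and 80.5% (264 of 328) in tumor barcodes with 20 to 60 UMIs. In blood it was 0.389% to 1.73% over the same 3 classes of cells and 13.4% (19 of 142) in the low barcodes.

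**Figure D3:**
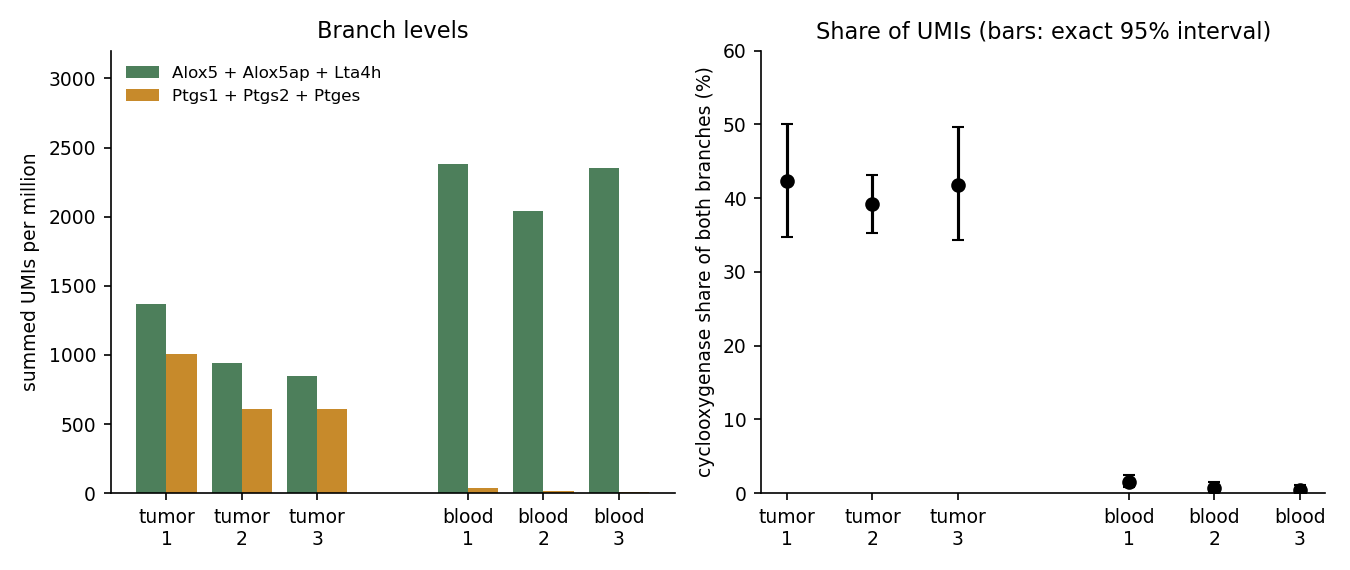
Left, summed CPM (linear axis from 0) of the lipoxygenase genes (green) and the cyclooxygenase genes (orange) in each mouse, tumor at left and blood at right. Right, the cyclooxygenase share of the UMIs of both branches in percent, with exact 95% intervals, which lies at 39.2% to 42.3% in tumor and at 0.386% to 1.52% in blood.

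Shares of cells were compared at a fixed depth of 441 UMIs per cell, which left out 209 tumor and 254 blood cells as too shallow. Alox5ap was detected in 26.2% ± 3.96 of tumor cells and 56.2% ± 3.36 of blood cells, Alox5 in 1.95% ± 0.350 and 5.09% ± 1.02, and Ltb4r1 in 2.07% ± 1.66 and 4.40% ± 0.453 (SD, n = 3 each). For each of these genes, every tumor mouse was below every blood mouse, and the exact two-sided permutation test gave p = 0.1, the smallest that 3 against 3 allows. The barcodes with 20 to 60 UMIs, whose content was not tested, were set beside these shares. A draw of 441 UMIs from them would contain an Alox5ap UMI in 8.95% of cases in tumor and 16.8% in blood. For Alox5 the values were 0.492% and 2.47%, and for Ltb4r1 0.164% and 1.07%. The shares of cells lay above those levels in both tissues. Unthinned, Alox5ap was detected in 257 of 841 tumor cells (30.6%) and in 968 of 1375 blood cells (70.4%).

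For Ptgs2 the low barcodes lay above the cells in both tissues, and for Ptafr the summed cells were 1.29 times the low barcodes in tumor (1.02 to 1.63) and 1.84 times in blood (1.10 to 3.32). A Ptgs2 UMI was found in 19.7% ± 5.09 of tumor cells and 0.0848% ± 0.0766 of blood cells at the fixed depth (exact permutation p = 0.1), and unthinned in 186 of 841 (22.1%) and 2 of 1375 (0.145%). A draw from the low barcodes would hold one in 34.4% of cases in tumor and 2.30% in blood, more than in the cells of either tissue. A draw from the summed tumor cells would hold one in 24.2% of cases, also more than the share of tumor cells. The tissue difference in Ptgs2 is given as one between libraries, with no count of expressing cells. The part of the low barcodes in the tumor share was not tested. A Ptafr UMI was found in 17.9% ± 4.13 of tumor cells and 5.22% ± 2.01 of blood cells (exact permutation p = 0.1), beside 15.6% and 2.82% for the low barcodes, so that tumor mouse 1, at 13.2%, was under that level and the others, at 19.9% and 20.7%, were above it. For the other 5 genes the mean share was at most 1.31% in tumor and 1.34% in blood, and the exact permutation p was 0.4 for Ptges, 0.8 for Ptger4 and 1 for Lta4h, Ptgs1 and Ptger2.

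The level of each gene was followed across barcodes of growing content in each library. In tumor, Ptgs2 had 955 CPM in barcodes with 20 to 60 UMIs (exact Poisson interval 842 to 1080, 95%), 946 in barcodes with 100 to under 200 genes, and 778, 585 and 451 CPM in cells with 200 to under 300, 300 to under 500 and 500 or more genes. Alox5ap ran the other way, at 213, 627, 731, 824 and 1300 CPM over the same classes. Thus in tumor the summed cells held 0.656 times the Ptgs2 level of the low barcodes (0.557 to 0.773) and 4.19 times their Alox5ap level (3.19 to 5.62). Ptafr had 384 CPM in the low tumor barcodes and 362 CPM in the richest cells, with 506 to 606 CPM between them. In blood, Alox5ap stood at 417 CPM in the low barcodes and at 1790 to 2170 CPM in every other class, and Ptgs2 had 52.6 CPM in the low barcodes (28.0 to 90.0, 13 UMIs) and 1.74 CPM in the cells (0.211 to 6.30), a ratio of cells over low barcodes of 0.0331 (0.00363 to 0.146). These intervals cover counting error within 1 library per tissue. What the low barcodes hold, and its part in the Ptgs2 level of the cells, was not tested.

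**Figure D4:**
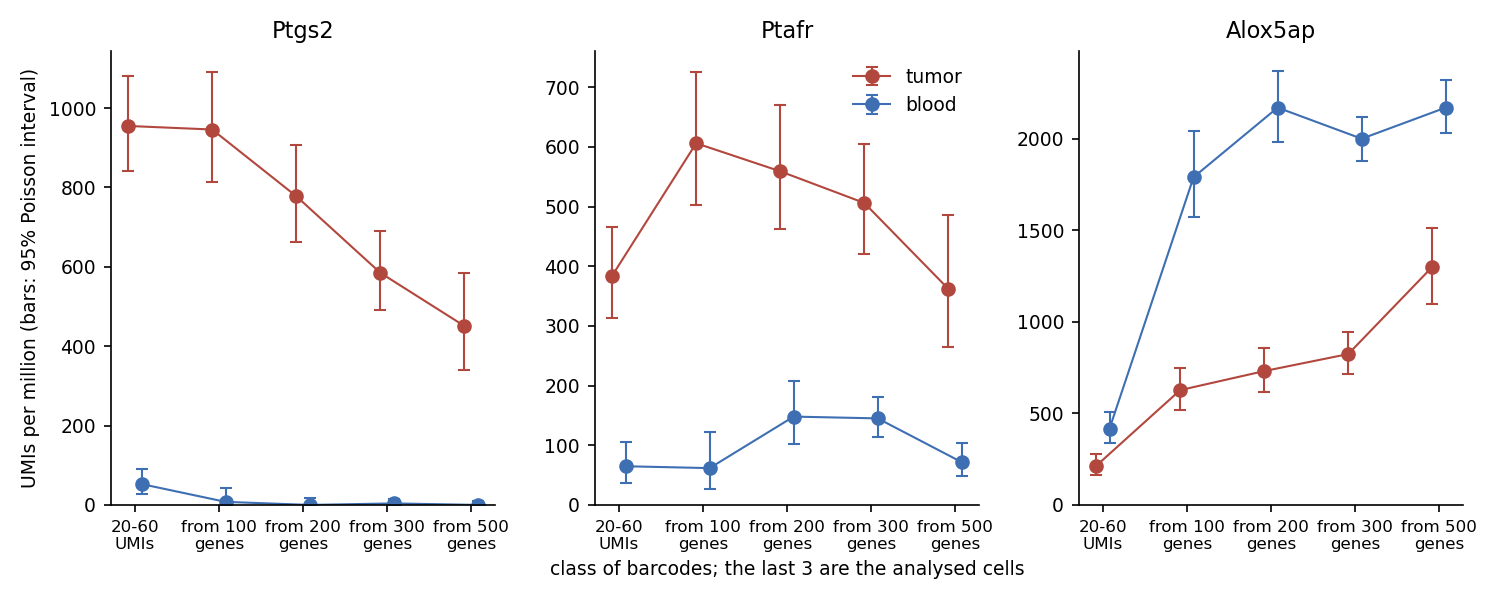
Level of Ptgs2, Ptafr and Alox5ap in CPM (vertical axes from 0, bars are exact 95% Poisson intervals) over 5 classes of barcodes, from those with 20 to 60 UMIs to cells with 500 or more detected genes, in tumor (red) and blood (blue). In tumor, Ptgs2 is at 955 in the first class and 451 in the last, while Alox5ap is at 213 in the first and 1300 in the last.

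The tumor cells without an HTODemux call, all of them in mouse 2, had 326 CPM of Ptgs2 (237 to 438), against 688 CPM in the tumor cells of all 3 mice that HTODemux gave to 1 hashtag (606 to 777). Their Alox5ap level was 1000 CPM (840 to 1190), against 860 CPM (768 to 959). With the HTODemux assignment the log2 fold changes between tumor and blood were 8.92 for Ptgs2, 2.23 for Ptafr, -1.15 for Alox5, -1.24 for Alox5ap and -1.35 for Ltb4r1.

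Marker genes of other cell types and stages were read beside these values. At least 2 UMIs of neutrophil markers were held by 86.0% of tumor cells and 99.6% of blood cells. Immature neutrophil markers were detected as 6 of 8 in both tissues, with Mpo and Elane at 0, at 1980 to 6830 CPM in tumor and 6210 to 13400 CPM in blood. The cells with at least 2 of their UMIs were 11.4% of the tumor and 21.2% of the blood cells. They held 29.6% of the Ltb4r1 and 68.4% of the Lta4h UMIs in tumor, where they had 18.2% of all UMIs, and 51.9% and 72.0% in blood, where they had 35.5%. The part of these cells in the tissue difference of Ltb4r1 was not tested.

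Platelets, rich in Ptgs1 in general, were barely seen: 1 of 8 platelet markers was detected in tumor (0 to 20.8 CPM over the list in the mice) and 4 of 8 in blood (3.03 to 27.5 CPM), with Itga2b, Gp1bb, Gp1ba and Gp6 at 0 in both. Monocyte or macrophage markers were detected as 11 of 11 in tumor (482 to 2210 CPM) and 5 of 11 in blood (616 to 651 CPM), where C1qa, C1qb, C1qc, Mrc1 and Ms4a7 were among those at 0. The 65 tumor cells with at least 2 UMIs of that list held 14.0% of all tumor UMIs, and with them 10.9% of the Ptgs2, 7.42% of the Ptafr, 18.5% of the Ltb4r1, 25.4% of the Alox5ap, 31.0% of the Alox5 and 47.4% of the Lta4h UMIs. In blood, 139 such cells with 20.7% of all UMIs held 39.3% of the Ltb4r1, 21.6% of the Alox5ap, 23.0% of the Alox5 and 62.0% of the Lta4h UMIs. Of the Ptgs1 UMIs they held 65.0% in blood (13 of 20) and 14.3% in tumor (2 of 14). The 36 blood cells with at least 2 T cell marker UMIs had 5.43% of all UMIs and 45.0% of those of Ptgs1 (9 of 20). A cell can be in several of these classes, and all 20 blood Ptgs1 UMIs lay in cells with neutrophil markers. The source of the blood Ptgs1 UMIs was not tested. MHC class II markers were detected as 4 of 4 in both tissues, at 156 to 2850 CPM in tumor and 36.6 to 133 CPM in blood, and the 33 tumor cells with at least 2 of their UMIs held 7.48% of all UMIs and 7.52% of those of Ptgs2. Erythroid markers were at 0 for 5 of 5 genes in tumor and at 14000 to 22200 CPM in blood. Their part in the CPM of other blood genes was not tested.

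Within blood, the receptor gene Ltb4r1 was higher in cells rich in granule transcripts. Blood cells with at least 3 UMIs of Camp, Ngp and Ltf together, secondary granule genes that developing neutrophils express, were taken as a class at 441 UMIs per cell, and 66 such cells were set against 1041 cells with 0 or 1 such UMI. Ltb4r1 stood at 398, 385 and 218 CPM in the granule-rich cells of mice 1, 2 and 3 (10 UMIs), against 88.2 ± 31.6 CPM in the rest (SD, n = 3, 40 UMIs). Every granule-rich value was above every value of the rest, and the log2 fold change was 2.04 with a standard error of 0.601 (edgeR with the mouse as a block, adjusted p = 0.00522). Ltb4r1 passed the low-count filter only through the granule-rich sums, so it was tested only because it was high there. The granule-rich sum of mouse 3 held 4587 UMIs, so its 218 CPM is a very small count. The call rested on few molecules and was lost without mouse 1 (1.80, edgeR adjusted p = 0.146) or mouse 2 (1.65, adjusted p = 0.196). Among other random draws, draw 3 gave 1.76 (edgeR adjusted p = 0.0434), and in draw 2 Ltb4r1 was not tested.

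Alox5ap had 2320 ± 261 CPM in the granule-rich cells and 2090 ± 358 CPM in the rest (SD, n = 3 each), a log2 fold change of 0.07 that did not pass the test (edgeR, adjusted p = 0.871). Without thinning the value was 0.55 and passed (adjusted p = 0.00226). Alox5 had 6 UMIs in the granule-rich cells and 58 in the rest, a difference of 0.65 on the log2 scale that did not pass the test (adjusted p = 0.581 in edgeR). Lta4h had 7 UMIs in each class, 260 and 14.7 CPM, and did not pass the filter on low counts. Of the 1084 genes tested in this comparison 22.7% were called, 7.29% higher and 15.4% lower. Of the 10 tested genes among the set and the wider list, 2 rose, Ltb4r1 and the formyl peptide receptor gene Fpr2 (1880 ± 393 CPM, against 387 ± 14.3), and 2 fell, Pla2g7, which breaks down platelet-activating factor (571 ± 196 CPM, against 2540 ± 178), and Cyp4f18, which breaks down leukotriene B4 in mice (159 ± 276 CPM, against 630 ± 33.2). Cyp4f18 had 6 UMIs in the granule-rich cells, all of them from mouse 1 (478, 0 and 0 CPM in the 3 mice).

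The tumor cells that carried a Ptgs2 UMI were compared with those that did not, within each mouse and with every cell thinned to 441 UMIs. There were 101 cells with and 531 without, and Ptgs2 itself was left out. Of 429 genes tested, 8 were called (1.86%, edgeR with the mouse as a block, adjusted p under 0.05), 1.17% higher and 0.699% lower. The acute phase gene Saa3, the cytokine gene Il1b, the chemokine genes Ccl3 and Cxcl2 and the NF-kB regulator gene Nfkbiz were higher in cells with a Ptgs2 UMI, and Ngp, Retnlg and Lyz2, genes of granule or secreted proteins, were lower.

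Il1b stood at 27800, 16000 and 14800 CPM in the cells with a Ptgs2 UMI of mice 1, 2 and 3, against 10200, 9010 and 9550 CPM in the cells without. All 3 mice were higher with the UMI, by 0.93 on the log2 scale (standard error 0.200, edgeR adjusted p = 0.000401). Saa3 stood at 427, 3260 and 569 CPM, against 419, 234 and 252 CPM, so that the fold change of 2.58 rested mainly on mouse 2. Ngp stood at 0, 140 and 0 CPM, against 558, 1170 and 1110 CPM, and was lower in all 3 mice (-3.61, edgeR adjusted p = 5.84e-07). These Ngp levels came from 4 UMIs in the cells with a Ptgs2 UMI and 253 in those without. Ngp passed the low-count filter only through the cells without, so it was tested only because it was high there. Retnlg, at 1650 ± 812 CPM with the UMI and 3680 ± 1090 CPM without (SD, n = 3 each), was lower by 1.38. These calls are fragile: without mouse 2 and without mouse 3, edgeR called 0 genes, with 22 and 16 genes at an unadjusted p under 0.05. A Ptgs2 UMI in a tumor cell was moreover no more frequent than the low barcodes give, as stated for the shares.

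Of the other genes of the set, Alox5ap and Ptafr could be tested. Alox5ap stood at 570, 595 and 455 CPM in the cells with a Ptgs2 UMI, against 1400, 925 and 735 CPM in the cells without. It was lower with the UMI in all 3 mice, but its log2 fold change of -0.83 with a standard error of 0.389 did not pass the test (edgeR, adjusted p = 0.457). Ptafr stood at 541 ± 244 CPM and 490 ± 127 CPM (SD, n = 3 each) with a difference of 0.16 on the log2 scale (adjusted p = 0.976 in edgeR). Its sign turned with other random draws. Of the 6 tested genes among the set and the wider list edgeR called 0, with 1 at an unadjusted p under 0.05.

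**Figure D5:**
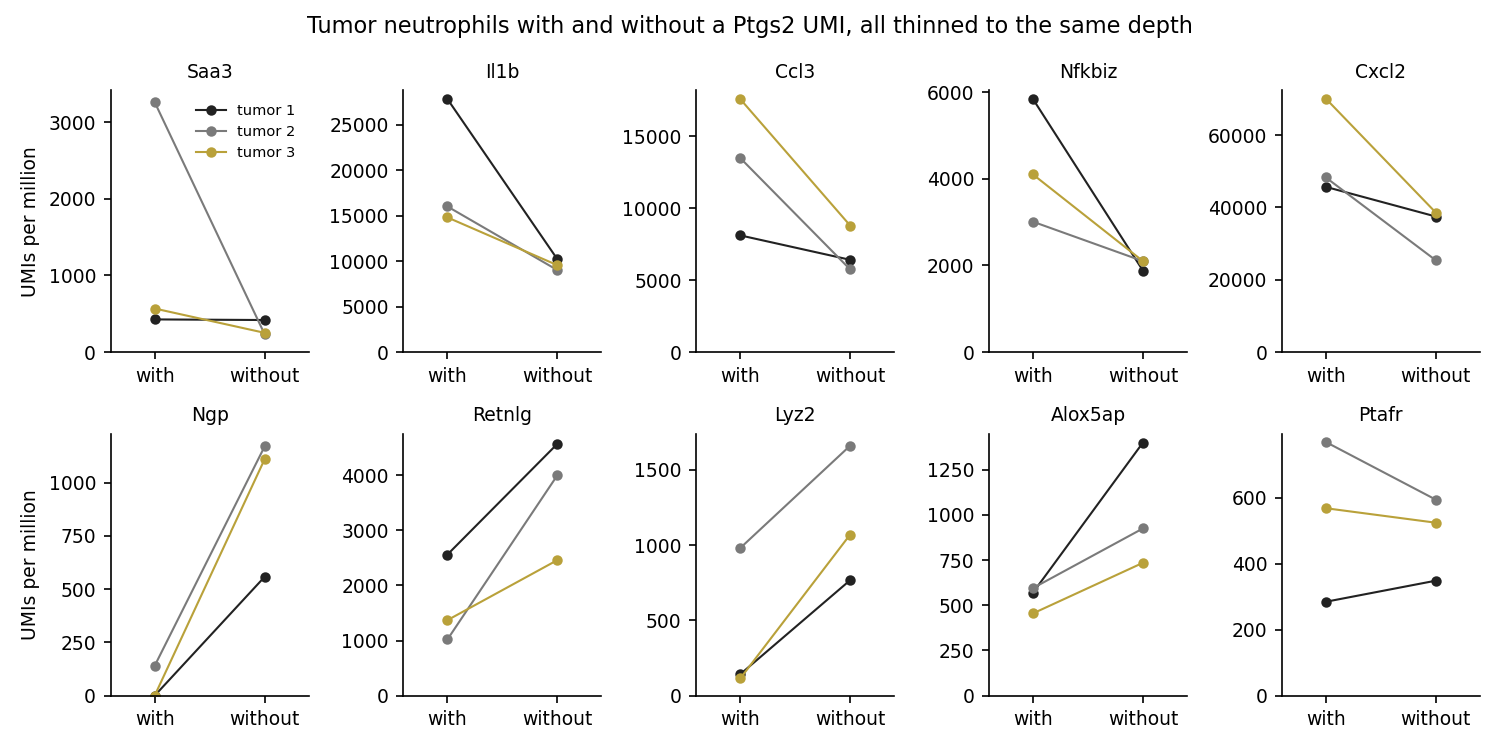
Level in CPM (vertical axes from 0) of the 8 called genes and of Alox5ap and Ptafr in tumor cells with (left) and without (right) a Ptgs2 UMI, a line per mouse, all cells thinned to 441 UMIs. Il1b and Nfkbiz are higher with the UMI in all 3 mice, Ngp and Retnlg are lower, and the Saa3 difference is mainly that of mouse 2.

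The wider list of 74 genes, covering arachidonic acid release and reacylation, both branches, receptors and platelet-activating factor metabolism, had 46 genes with a UMI and 13 that were tested. Of these, 3 rose in tumor, 5 fell and 5 did not pass the test, with a median log2 fold change of -0.55, beside -0.04 over all genes tested. Of all genes tested 60% were called, 30.2% higher and 29.8% lower, so the number of calls in the list is near that background. Among genes that return arachidonic acid to phospholipids, the acyl-CoA synthetase gene Acsl4 averaged 60.3 ± 15.5 CPM in tumor, against 11.6 ± 7.44 CPM in blood (SD, n = 3 each), and rose by 2.43 on the log2 scale (adjusted p = 0.000179 in edgeR). The acyltransferase gene Mboat7 fell by 1.09, at 52.8 ± 17.0 and 130 ± 20.7 CPM. Acsl1 and Acsl5 did not pass the test.

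In the lipoxygenase branch of the wider list, Cotl1, whose protein binds 5-lipoxygenase, averaged 258 ± 101 CPM in tumor, against 549 ± 74.1 CPM in blood, and fell by 0.92 on the log2 scale. Ggt5, a peptidase that turns leukotriene C4 into D4, fell by 1.37, at 23.8 ± 5.91 and 66.2 ± 15.6 CPM, a call lost without tumor mouse 2, with a value of -1.57 (edgeR, adjusted p = 0.0543), and also at a hashtag share of 90% (-1.08, adjusted p = 0.0656). Cyp4f18 rose by 0.56, at 850, 804 and 796 CPM in tumor, against 621, 495 and 566 CPM in blood. That call was lost in the fit without the low-count filter (0.28, edgeR adjusted p = 0.451), among cells with at least 300 genes, and without blood mouse 2.

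In platelet-activating factor metabolism, the synthesis gene Lpcat2 averaged 120 ± 40.2 CPM in tumor, against 252 ± 16.4 CPM in blood and fell by 1.19. Pla2g7, which encodes the hydrolase that inactivates platelet-activating factor, stood at 1290, 1180 and 1250 CPM in tumor, against 2290, 2160 and 2280 CPM in blood, and fell by 0.84 (standard error 0.116, edgeR adjusted p = 9.20e-06). Pafah1b1, a subunit of an intracellular hydrolase and also a dynein regulator, was higher in tumor, at 607 ± 87.5 and 274 ± 12.1 CPM (log2 fold change 1.13). The receptor gene Ptafr thus rose while Lpcat2 and Pla2g7 fell.

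Among genes too low for the filter, the following were picked after their values were seen. Hpgds, the hematopoietic prostaglandin D synthase, had 7, 20 and 2 UMIs in the tumor mice and 0 in each blood mouse, at least 19.4-fold higher in tumor against a floor of 3 counts over the summed blood cells. Its tumor level of 50.6 CPM compared with 63.4 CPM in barcodes with 20 to 60 UMIs, a ratio of 0.798 (0.424 to 1.55). The tumor cells with neutrophil markers held 75.9% of the Hpgds UMIs and 88.3% of all UMIs. Those with MHC class II markers held 24.1% (7 of 29) and 7.48%, and those with monocyte or macrophage markers 20.7% and 14.0%. The source of the Hpgds UMIs was not tested. Mgll, a lipase that frees arachidonic acid from 2-arachidonoylglycerol, had 3 UMIs in tumor and 48 in blood, a ratio of summed levels of 0.125 (0.0249 to 0.388). Daglb, which makes that substrate, had 3 and 27 UMIs, and Abcc1, an exporter of leukotriene C4, had 16 and 2, ratios of 0.222 (0.0432 to 0.723) and 16.0 (3.77 to 144). In the fit of all 16032 genes without the filter, which called 16.4% of them, 7.69% higher and 8.71% lower, 4 genes of the wider list rose and 8 fell.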

How the data were processed

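The authors deposited 2 kinds of raw counts, UMIs per gene and barcode for the RNA libraries and hashtag reads or molecules per barcode for the hashtag libraries. The submitters' processing notes name STAR and mm10, and the counter and annotation are not stated there or in the labels. A gene listed for a single tissue was given 0 in the other.

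Barcodes with at least 200 genes, at most 15% mitochondrial UMIs and at least 70% of hashtag counts from 1 hashtag were kept. In tumor, 963 barcodes had 200 genes, 16 exceeded the mitochondrial limit and 103 fell under the hashtag share. In blood the numbers were 1541, 7 and 154. Doublets of cells from different mice can fall under the hashtag share. Of the cells kept, HTODemux gave several hashtags to 78 in tumor and 101 in blood, and these stayed in the main comparisons. No doublet caller on the RNA counts was run. The total summed per mouse was 70612 to 385370 UMIs in tumor and 330296 to 436713 in blood, so precision is lowest for tumor mouse 1.

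Summed counts went through edgeR 4.0.16 under R 4.3.3 (quasi-likelihood test) with its default low-count filter, TMM scaling and Benjamini-Hochberg adjustment over all genes tested. DESeq2 1.42.0 and HTODemux of Seurat 5.3.0 (positive quantile 0.99) were alternatives. Log2 fold changes are of tumor over blood, of cells with over without a Ptgs2 UMI, or of granule-rich over other cells. The fits were also run on simulated counts, with an outcome not given here. Changes were simulated only in genes above a minimum of summed UMIs, so the simulation does not cover genes with fewer. The fixed depth of 441 UMIs is the 25th percentile of UMIs per tumor cell, and shares at that depth are expected values over all draws (hypergeometric), while the class comparisons used 1 draw. Ratios have exact conditional intervals, levels exact Poisson and shares Clopper-Pearson intervals at 95%, for counting error only. The classes of cells by Ptgs2 or granule UMIs share their mouse, which is a block there.

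Genes named were the 10 of the set, every gene of the wider list past the threshold between tissues, and up to 8 genes in each direction in the Ptgs2 comparison. The genes, the 14 marker lists and the wider list were chosen with earlier results of these data known. Hashtag numbers were not taken to pair tumor and blood, since the labels do not say that a number marks the same mouse in both. The p-values measure the spread between 3 mice within 1 library per tissue. The fit without the low-count filter was chosen after seeing the data for the class comparisons, and for genes of the set that an alternative filtered out. The value of a single marker gene is not reported here.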

Additional observations from a re-analysis of the deposited data

Results flagged for a closer look

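Signal outside the cells stood out for Ptgs2. In tumor barcodes with 20 to 60 UMIs, which the comparisons of cells do not use, Ptgs2 had 955 CPM (256 UMIs, exact Poisson interval 842 to 1080). That was above the floor of 3 counts, 11.2 CPM, and above the 627 CPM of the tumor cells. In blood barcodes of the same size Ptgs2 had 52.6 CPM (13 UMIs, 28.0 to 90.0), above the same floor, there 12.1 CPM, and above the 1.74 CPM of the blood cells. What these barcodes hold was not tested.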

How the results depend on the processing

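Ptgs2, Ptafr, Alox5 and Alox5ap kept their direction and call in all 18 alternatives each, and Ltb4r1 in 16 of 18. These counts include the setting of at least 10 hashtag counts, which removed no cell and repeats the main fit. The exceptions for Ltb4r1 were the fit without marker cells, with a log2 fold change of -0.91, and the fit without tumor mouse 2. Leaving out 1 mouse at a time gave -1.58 to -1.01 for Ltb4r1, -0.0797 to 0.856 for Ptgs1 (-1.05 to 1.26 with the fits without the filter described next), -3.93 to 0.59 for Ptger4 and -0.47 to 0.16 for Ptger2, and 1682 to 2355 genes called between tissues. Ptger4 was also 0.73 with thinned cells and 0.125 with DESeq2. Where a tested gene of the set did not pass the filter under an alternative, the fit without the filter was added after seeing the data. It gave -1.76 for Lta4h, now called, and -1.20 for Ptgs1 with HTODemux, 0.135 for Lta4h with thinned cells, and 0.287 and 0.0557 for Ptger2 at a hashtag share of 90% and in cells with at least 300 genes. Thinned cells gave 1359 genes called, of fewer tested, and no filter 2630 (1233 higher, 1397 lower). DESeq2 size factors gave 1065 higher and 1166 lower.

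The replicate block gave 1973 genes (993 higher, 980 lower). Deviations of same-numbered tumor and blood sums had correlations of 0.0226, 0.00893 and -0.0228 over 3674 genes. Those of differently numbered sums ran from -0.0501 to 0.0512. Values this small for every combination cannot tell whether a number marks the same mouse. The numbers were not taken as pairs because the labels do not give a pairing.

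The Ptgs2 comparison called 5 genes with a second random draw, 3 without thinning, 2 with no replicate block, and 0 to 5 without 1 mouse. Of the 8 genes, 5, 2 and 2 were also called in the first 3 of these. Ptafr there was -0.0185 and -0.0529 with other draws and -0.0854 with HTODemux. The granule comparison called 670 genes without thinning and 131 to 156 without 1 mouse, with Alox5ap at -0.17 to 0.22.

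The difference in the share of cells, tumor minus blood in percentage points, turned sign for low genes. Without thinning it was -1.23 for Lta4h, -0.377 for Ptgs1 and 0.180 for Ptger4. Without 1 mouse it ran from -0.397 to 0.424 for Lta4h, -0.0916 to 0.380 for Ptgs1, -0.318 to 0.0743 for Ptger4 and -0.332 to 0.433 for Ptger2. The cyclooxygenase share in tumor was 44.1% with HTODemux and 43.3% at a hashtag share of 90%, and in blood 2.29% with receptors added. In barcodes with 10 to 40 UMIs, tumor Alox5ap had 291 CPM and Ptafr 520 CPM. The cause of these changes was not tested. With few UMIs per cell, depth limits Lta4h, Ptgs1, Ptges, Ptger4 and Ptger2 in both tissues.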
